A study of Mus musculus with 12 samples.

Results

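The Ifi200 (p200) genes are a family of interferon-inducible genes that lie side by side on mouse chromosome 1. The 10 members described here, *Ifi202b*, *Ifi203*, *Ifi204*, *Ifi206*, *Ifi208*, *Ifi209*, *Ifi213*, *Ifi214*, *Mndal* and *Aim2*, were taken by symbol from 18992 gene identifiers, and all 10 were detected in every library. Most family proteins carry a HIN domain, which binds DNA, and most of these pair it with a pyrin domain, which recruits partner proteins. *Aim2* senses double-stranded DNA in the cytosol and assembles an inflammasome through the adaptor *Pycard* and the protease *Casp1*, whereas the product of *Ifi202b* lacks the pyrin domain and is known to hold back *Aim2*. The cluster falls in *Nba2*, a lupus susceptibility interval of NZB mice, and *Ifi202b* has long been discussed as a candidate gene of that interval. Type I interferon and IFN-γ are known to raise transcription of the family in leukocytes.

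The cells were PD-1+CD44+CD8+ T cells sorted from female NZB/W F1 mice, the offspring of NZB and NZW parents, which develop lupus nephritis as they age. Spleen was sampled at an age of 12 weeks (called 12W spleen here) and again at 28 weeks (28W spleen), the latter together with kidney (28W kidney), and no transgene, deletion or treatment is named for these 3 groups. The labels list 4 samples in each group, 12 in all, with titles that end in L001 to L004. Whether these 4 are mice, preparations or sequencing lanes of 1 preparation is not stated. The deposited tables hold each group as 1 library, so no difference has a replicate check and no p-value is given. How many mice were pooled is not stated, kidney alone is described as digested with collagenase, and an age of 12 weeks is entered for the samples titled 28W spleen, whose titles were followed here.

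Depth ran from 29937384 (28W kidney) to 34742303 (12W spleen) unique molecular identifiers (UMIs, 1 per captured transcript), over 6481 to 7135 cells per library. The authors made 33 clusters (10, 11 and 12 for 12W spleen, 28W spleen and 28W kidney), separately in each library, so their numbers are not matched. All 7 genes of a CD8 T cell list were detected in each library, at a summed level of 4516 to 5904 UMIs per 1000000 (CPM), and *Cd4* was at 0.345 to 3.94 CPM. In 8 of 33 clusters the summed level of B cell, myeloid, kidney tubule or erythroid markers was at least 5 times that library's median cluster and at least 100 CPM. These clusters held 15.4% of the cells in 12W spleen, 9.61% in 28W spleen and as many as 34.6% in 28W kidney, and results that rest on them are given with and without these 8 marker clusters. Neutrophil markers were not part of this rule, and 28W spleen cluster 11, with 101 CPM of them, was kept. All 6 kidney tubule markers were at 0 UMIs in both spleens and summed to 168 CPM in kidney. Each pair of libraries shared 52 to 66 cell barcodes.

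The 13 family genes in the files (the 10 members with *Ifi205*, *Ifi207* and *Ifi211*) spanned 680.931 kb of GRCm38 chromosome 1, from 173350879 to 174031810. *Aim2* opened the interval on the plus strand at 173350879 to 173466040, while *Ifi202b* lay near the other end on the minus strand at 173962568 to 173982744. *Ifi208* (173673675 to 173698395) and *Ifi209* (173630917 to 173647928) were the only other members on the plus strand. The annotated span of *Mndal* (173849126 to 173942491) contains that of *Ifi211* and overlaps that of *Ifi203* (173920407 to 173942672), with 37 exonic bases in common.

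**Figure D1:**
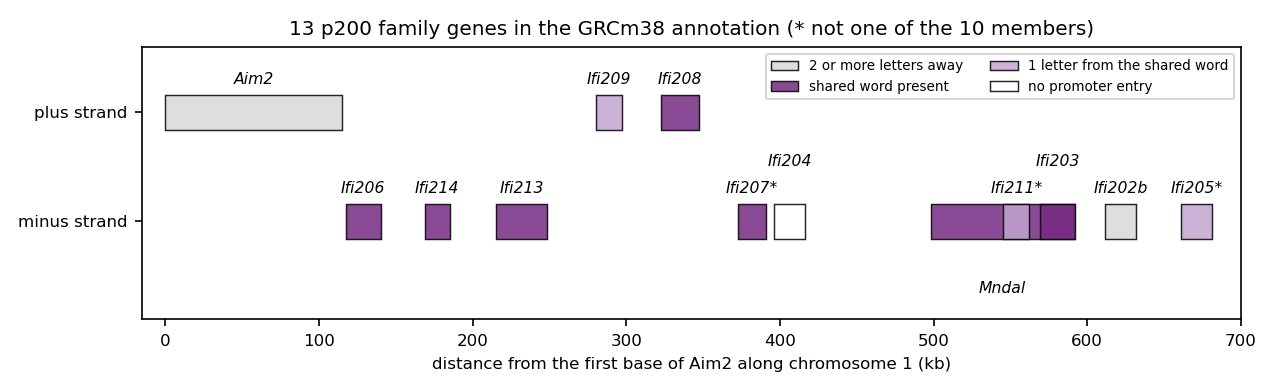
Map of the 13 family genes, with distance in kb from the first base of *Aim2* on the x axis and strand on the y axis, and each box drawn to the annotated span of a gene. Dark boxes mark a promoter that holds the word shared by the family, light purple boxes 1 letter away, grey boxes 2 or more letters away and white boxes no promoter entry, and the dark boxes are spread from *Ifi206* to *Ifi203*.

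Promoter windows of 300 bases (250 before and 50 after the start) from RefSeq (GRCm38.p6) were matched to 9 of 10 members, all but *Ifi204*. They were searched on both strands for the core of the interferon-stimulated response element (ISRE), an element through which type I interferon acts on genes, taken as 2 copies of GAAA with any 2 bases between them, and for TTCNNNGAA, the gamma-activated site (GAS), an element of genes that respond to IFN-γ. The ISRE core was found in 6 of 9 members (*Ifi203*, *Ifi206*, *Ifi208*, *Ifi213*, *Ifi214* and *Mndal*) and in *Ifi205*, *Ifi207* and *Ifi211*, against 3.99% of all 27025 genes with a window and 5 of 11 interferon-stimulated genes (ISGs) outside the family. GAS was found in *Ifi202b* alone among the members, against 9.55% of all genes with a window, and no member held both motifs. The 160 bases before the start are shown for *Ifi203* (its second entry, chr1:173942493-173942652, minus strand), *Ifi206* (chr1:173491319-173491478, minus strand), *Ifi208* (chr1:173673505-173673664, plus strand) and *Ifi214* (chr1:173535958-173536117, minus strand), which share 1 word, and for *Ifi209* (chr1:173630699-173630858, plus strand) and *Ifi202b* (chr1:173982845-173983004, minus strand), which lack it. Capitals mark an ISRE core or, in *Ifi202b*, the GAS match.
Ifi203: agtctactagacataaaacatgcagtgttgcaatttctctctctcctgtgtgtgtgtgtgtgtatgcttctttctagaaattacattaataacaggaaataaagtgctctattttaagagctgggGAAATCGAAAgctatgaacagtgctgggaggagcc
Ifi206: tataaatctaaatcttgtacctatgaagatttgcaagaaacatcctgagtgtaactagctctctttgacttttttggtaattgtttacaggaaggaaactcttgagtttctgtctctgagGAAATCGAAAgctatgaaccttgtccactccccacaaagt
Ifi208: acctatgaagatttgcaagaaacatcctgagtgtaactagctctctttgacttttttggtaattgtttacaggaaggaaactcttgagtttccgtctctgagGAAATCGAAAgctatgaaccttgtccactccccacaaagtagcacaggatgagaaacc
Ifi214: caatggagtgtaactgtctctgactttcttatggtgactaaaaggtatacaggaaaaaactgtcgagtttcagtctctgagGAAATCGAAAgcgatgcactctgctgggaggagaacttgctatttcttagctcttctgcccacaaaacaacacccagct
Ifi209: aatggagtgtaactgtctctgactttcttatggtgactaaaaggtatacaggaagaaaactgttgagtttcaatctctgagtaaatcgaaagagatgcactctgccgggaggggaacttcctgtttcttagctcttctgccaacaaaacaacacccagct
Ifi202b: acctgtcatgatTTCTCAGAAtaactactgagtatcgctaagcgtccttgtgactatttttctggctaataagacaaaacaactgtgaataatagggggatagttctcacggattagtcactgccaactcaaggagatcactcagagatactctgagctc

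The same 10 letters, GAAATCGAAA, stood in all 6 members with the core, with its first letter between 35 bases (*Ifi203*) and 79 bases (*Ifi214*) before the start. The word was picked from these promoters. *Ifi203* has 2 entries, and the first held no ISRE core and came no nearer to the word than 4 mismatches. Of the 160 bases before the start, 118 and 153 were annotated as exon in the 2 entries of *Mndal*. Only 13 of 32851 windows (0.0396%) held that word before the start on either strand, 7 of them in family genes, and 399 (1.21%) held it with at most 1 mismatch. *Ifi209* differed from the word by G1T, and *Ifi205* and *Ifi211* by C6T, with letters counted from 1 at its first base. *Ifi202b* and *Aim2* came no nearer than 3 mismatches. Neighbouring family genes share long stretches of sequence, so their promoters are not independent of one another, and these letters are those of the C57BL/6J reference, not of NZB or NZW.

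That likeness also touches the counts. Of all 90-base words in the first 500 bases of its coding transcripts, where a 5′ kit reads, *Ifi204* shared 72.7% with *Ifi211* or *Ifi207*, *Ifi208* 34.4% and *Ifi206* 33.7% with other genes, *Ifi203* 16.1% with *Mndal*, *Ifi213* 15.1%, and *Ifi209* and *Ifi214* 7.79% with each other. *Aim2* and *Ifi202b* shared none. Outside the members, *Ifi211* shared 52.8% with *Ifi204*. UMIs of the genes that share words are uncertain, by an amount that the share of words does not give. How well reads of NZB or NZW alleles map to the reference was not tested.

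Summed over the 10 members, the family stood at 631.0 CPM in spleen at 12W (95% Poisson interval 622.7 to 639.4), at 766.7 CPM in spleen at 28W (757.1 to 776.3) and at 800.4 CPM in kidney (790.3 to 810.6), or 3.18, 3.79 and 3.36 UMIs per cell. The 3 intervals did not overlap. They cover counting error only and not the spread between mice or preparations. In a library sum, fewer cells of a type and less RNA per cell cannot be told apart.

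*Aim2*, the inflammasome sensor, was at 37.0 CPM in spleen at 12W and 41.1 CPM at 28W, and at 49.5 CPM in kidney. It was highest in kidney, and its 2 spleen intervals (35.0 to 39.1 and 38.9 to 43.4) overlapped. *Ifi202b* was at 0.374, 0.843 and 4.74 CPM in the same order, from 13, 27 and 142 UMIs. Its interval in kidney (4.0 to 5.59) lay above both spleens, whose intervals (0.199 to 0.640 and 0.556 to 1.23) overlapped. *Ifi204*, often set beside human *IFI16* and studied as a DNA sensor of macrophages, was at 0.662, 1.37 and 3.41 CPM from 23, 44 and 102 UMIs, with the same order. So these genes were scarce in the sorted cells, while each of the other 8 members had at least 875 UMIs in every library.

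The remaining 7 members, whose roles are less settled, followed 3 orders. *Ifi203* was at 116 CPM in spleen at 12W, 166 CPM at 28W and 175 CPM in kidney. *Mndal*, next to it, was at 97.7, 126 and 145 CPM. *Ifi208* was at 87.3, 100.3 and 123.6 CPM. For these 3 genes the levels of the libraries increased in that order, with non-overlapping intervals except for *Ifi203* between the 28W libraries, where they met at 170 CPM. *Ifi213* was at 46.4, 52.3 and 53.3 CPM, and its intervals at 28W overlapped. *Ifi206* was at 25.2, 38.6 and 35.4 CPM and *Ifi209* at 123.8, 145.4 and 135.3 CPM, both highest in 28W spleen. *Ifi214* was at 96.8, 94.9 and 75.9 CPM, the only member with its highest level in 12W spleen and the only one with its lowest in kidney, although its spleen intervals overlapped.

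**Figure D2:**
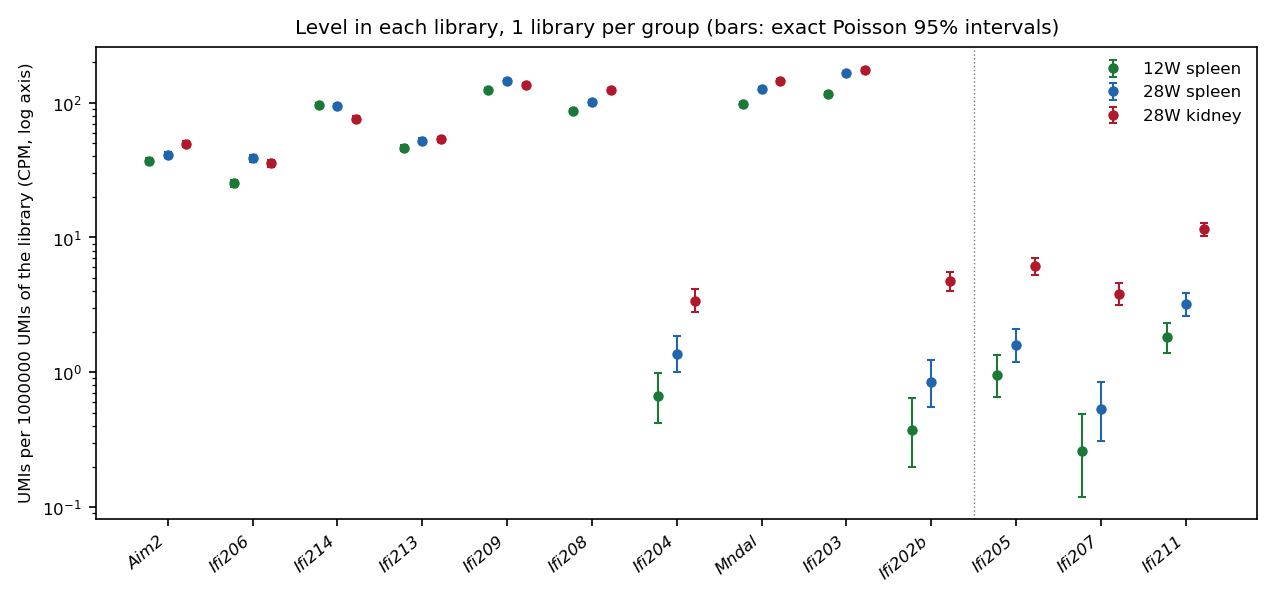
Level of each family gene in the 3 libraries in CPM on a log axis, in the order of the genes along the chromosome, with the 3 family genes outside the 10 members to the right of the dotted line; bars are exact Poisson 95% intervals from 1 library per group. *Ifi202b* and *Ifi204* sit below 5 CPM in every library, the other 8 members sit between 25.2 and 175 CPM, and *Ifi214* alone is lowest in kidney.

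The comparison of 28W with 12W spleen asked how the cells differed between the pre-disease and the advanced stage. Of the 10 members, 9 were higher at 28W beyond counting error, against 19.1% of all genes, and *Ifi214* was within it, but the shifts were small. The median log2 ratio, taken after adding 1 CPM, was 0.30 over the members and -0.10 over the 8919 genes that reached 5 CPM in 1 library or both, which 8 members did, with a median of 0.21. No member was at least 2-fold higher on that scale, against 1.85% of all genes, and none was at least 2-fold lower, against 0.953%. At 1.5-fold, only *Ifi206* was called higher (log2 ratio 0.60, ratio 1.53, 95% interval 1.40 to 1.67), against 4.17% of all genes. *Ifi203* followed at 0.51 (ratio 1.43, 1.37 to 1.49) and *Mndal* at 0.37 (1.29, 1.23 to 1.35). *Aim2* differed by 0.15 (1.11, 1.03 to 1.20). *Ifi214* stood at -0.03 (0.98, 0.93 to 1.03), and its sign turned when libraries were scaled by the median gene. For the scarce members the pseudocount holds the log2 ratio down, since their unadjusted ratios were 2.25 (1.12 to 4.76) for *Ifi202b* and 2.08 (1.23 to 3.6) for *Ifi204*.

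ISGs outside the family were further apart between the same libraries. Of 15 listed ISGs, 11 were at least 2-fold higher at 28W and the median log2 ratio was 1.19, with *Oasl2* at 1.78, *Mx1* at 1.77 and *Ifit3* at 1.72, and *Xaf1* at 0.76 the lowest. On that scale each of these 15 genes lay above each of the 10 members. Without the added 1 CPM, *Ifi202b* (ratio 2.25) and *Ifi204* (2.08) lay above several ISGs, from *Xaf1* (1.71) up to *Isg20* (2.03). *Ifi202b* also lay above *Ifi27l2a* (2.23), while others such as *Ifit3* (3.37) lay above both. Both lists were chosen with results of these data known, so the gap between them is a description.

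The age difference was smaller without 1 cluster of 12W spleen, chosen for its low family level. Cluster 7 of 12W spleen held 372 cells with 13406 UMIs per cell and had the lowest family level of all 33 clusters, 121.5 CPM (112.0 to 131.6). Without it the median over the members was 0.12 against -0.07 for all genes, and 0 of 10 members were 1.5-fold higher, against 3.79% of all genes. *Ifi203* then stood at 0.33, *Ifi206* at 0.41 and *Mndal* at 0.20, whereas *Ifi213* was at -0.03 and *Ifi214* at -0.21 (ratio 0.86, 0.82 to 0.90). The ISG median was 1.0 without that cluster, with 8 of 15 genes at least 2-fold higher. This cluster was left out after its values were seen, and from 12W spleen alone. Leaving out the lowest cluster of that side lowers the members' ratios by construction. The lowest cluster of 28W spleen (cluster 6, family level 404 CPM) was kept. How much of the age difference lies in cluster 7 was therefore not tested.

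The comparison of kidney with spleen at 28W asked how the cells in the diseased organ differed from those in the spleen. The members split, with 6 higher in kidney beyond counting error, against 42.5% of all genes, 3 lower (*Ifi206*, *Ifi209* and *Ifi214*), against 22.8%, and *Ifi213* within it. Their median log2 ratio was 0.14, beside 0.08 over the 9274 genes that reached 5 CPM, but it was 0.05 over the 8 members that did so, and 5 of 10 members lay above that median under each of 3 scalings. With 1 CPM added, only *Ifi202b* was at least 2-fold higher (log2 ratio 1.64, ratio without it 5.63, 3.71 to 8.83), against 6.41% of all genes. None was at least 2-fold lower, against 1.43%. At 1.5-fold, *Ifi202b* and *Ifi204* (0.89, ratio without it 2.48, 1.73 to 3.62) were called higher, against 12.2% of all genes. Neither reached 5 CPM in either library, so both lie outside the genes behind these shares. None of the 8 members that reached it was called at 2-fold or 1.5-fold. *Ifi214* was the lowest at -0.32 (0.80, 0.76 to 0.85), against 4.4% of all genes at least 1.5-fold lower, a size it did not reach.

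The abundant members differed little between the 28W libraries. *Ifi208* was at 0.30 (ratio 1.23, 1.17 to 1.29), *Aim2* at 0.26 (1.21, 1.12 to 1.30) and *Mndal* at 0.20 (1.15, 1.10 to 1.20). *Ifi203* at 0.08 and *Ifi213* at 0.03 fell below 0 when libraries were scaled by the median gene, by the total without T cell receptor, immunoglobulin, mitochondrial and ribosomal protein genes, or without the cluster of most UMIs per cell. *Ifi206* at -0.12 and *Ifi209* at -0.10 turned to 0.15 and 0.14 without the 8 marker clusters. The members' median was then 0.29, and *Ifi208* (0.59, ratio 1.51, 1.44 to 1.59) passed 1.5-fold beside *Ifi202b*, against 7.57% of all genes. Of the 8, kidney cluster 11 carried erythroid markers alone, with proliferation genes at 4532 CPM and the CD8 T cell list at 5254 CPM. Its family level was low (516 CPM), and the proliferating 28W spleen cluster 6 was not left out. With kidney cluster 11 kept, the median was 0.15 and 1 member passed 1.5-fold, against 9.79% of all genes. The scaling by the reduced total moved the median of all genes by -0.15. ISGs outside the family had a median of 0.43 with 0 of 15 at least 2-fold higher, from *Mx1* at 0.90 and *Isg20* at 0.84 down to *Usp18* at -0.34 and *Oasl2* at -0.53. Without the marker clusters that median was 0.73, with 4 of 15 at least 2-fold higher. With kidney cluster 11 kept it was 0.58, with 0 of 15 at least 2-fold higher.

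The kidney excess of *Ifi202b* and *Ifi204* lay largely in cluster 12, which held 184 cells. *Ifi202b* had 93 of its 142 kidney UMIs there (65.5%), or 89.6 CPM (72.3 to 110), and its median kidney cluster was at 1.54 CPM. *Ifi204* had 62 UMIs there (60.8%), or 59.7 CPM (45.8 to 76.5). In the same cluster myeloid markers summed to 10020 CPM, neutrophil markers to 17854 CPM and the CD8 T cell list to 1496 CPM, the lowest of that library. The remaining 8 members were below their level in the rest of the kidney library in this cluster, with *Ifi214* at 13.5 CPM and *Ifi208* at 34.7 CPM. Without the 8 marker clusters, *Ifi202b* stood at 1.94 CPM in kidney and 0.614 in spleen, from 38 and 19 UMIs (log2 ratio 0.87, ratio 3.17, 1.78 to 5.81), and *Ifi204* at a log2 ratio of 0.17 (ratio 1.22, 0.73 to 2.01). With 1 CPM added no member was then at least 2-fold higher in kidney, against 2.67% of all genes.

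The other 3 family genes also had much of their kidney total in cluster 12. *Ifi205* was at 0.95 CPM in spleen at 12W, 1.59 CPM at 28W and 6.11 CPM in kidney. All 51 of its UMIs in 28W spleen came from cluster 10, where B cell markers summed to 2481 CPM and myeloid markers to 1454 CPM, and 86.3% of those in kidney came from cluster 12. *Ifi207* was at 0.259, 0.531 and 3.81 CPM, with 82.4% of its 28W spleen UMIs in cluster 10 and 88.6% of its kidney UMIs in cluster 12. *Ifi211* was at 1.81, 3.22 and 11.5 CPM, with 32.0% and 51.6% in those clusters. All 3 were at least 2-fold higher in kidney (log2 ratios 1.46, 1.65 and 1.57). Without the 8 marker clusters none was, with *Ifi211* at 0.90 (ratio 2.26, 1.64 to 3.13) and *Ifi205* and *Ifi207* down to at most 3 UMIs in either library. With kidney cluster 11 kept, 1 of the 3 was still at least 2-fold higher. The part that cells other than T cells had in these values was not tested beyond leaving the marker clusters out.

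Some UMIs of *Ifi202b* lay in clusters with no such markers. In 28W spleen 12 of its 27 UMIs (44.4%) were in cluster 4, at 3.37 CPM (1.74 to 5.89), and 8 were in cluster 10. In kidney cluster 6 had 14 UMIs, at 7.24 CPM (3.96 to 12.2), and cluster 10 had 8, at 10.3 CPM (4.46 to 20.4). In 12W spleen 6 of its 13 UMIs (46.2%) were in cluster 2, and 5 of 10 clusters had none. Clusters 2, 4 and 6 were also those with the highest summed ISG level of their library, and kidney cluster 10 had the second highest. *Ifi211* likewise had 22 UMIs in 28W spleen cluster 4 (6.18 CPM) and 23 in kidney cluster 6 (11.9 CPM), while *Ifi205* had 0 and 1 there. These are counts of few molecules.

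**Figure D3:**
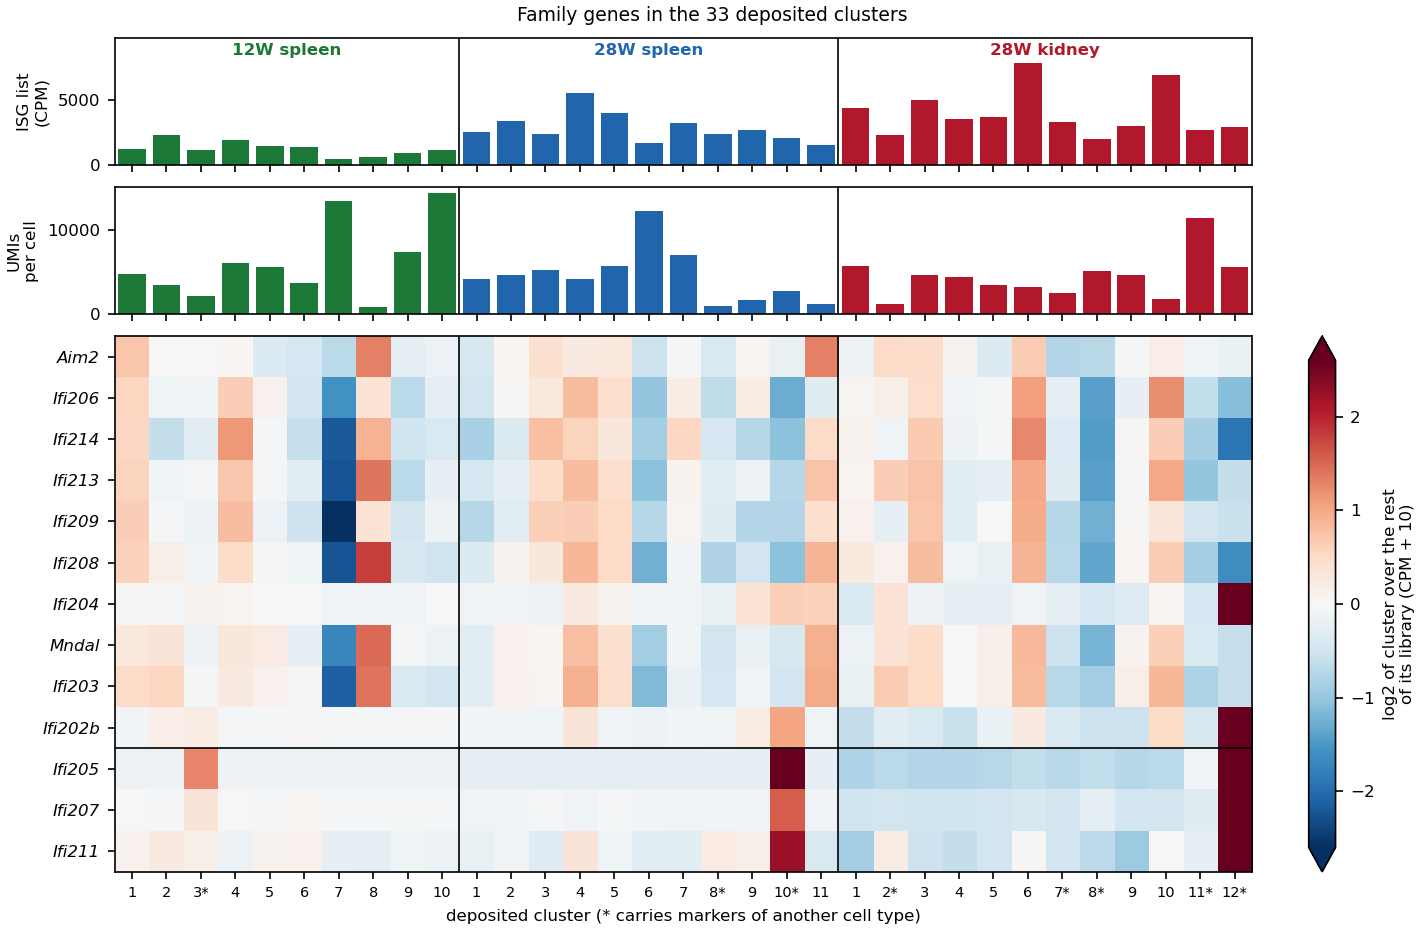
Heat map of the 13 family genes over the 33 clusters, as log2 of a cluster over the rest of its library after adding 10 CPM, with colours ending at the bounds of the scale, and with bars for the summed ISG level in CPM and UMIs per cell; asterisks mark clusters that carry markers of another cell type. Abundant members are low together in 12W spleen cluster 7 and high together in 28W spleen cluster 4 and kidney cluster 6, while *Ifi205*, *Ifi207* and *Ifi211* are high in 28W spleen cluster 10 and kidney cluster 12.

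Across clusters the 8 abundant members were positively correlated. Over the 33 clusters, with log2 of CPM + 10 centred in each library, the 28 pairs among them had Pearson r from 0.57 (*Ifi206* and *Aim2*) to 0.97 (*Ifi203* and *Mndal*), with a median of 0.85. Over the 25 clusters outside the 8 marker clusters the median was 0.83. With these 8 members *Ifi202b* had r from -0.34 (*Ifi214*) to -0.01 (*Aim2*), and over the 25 clusters from 0.09 (*Aim2*) to 0.54 (*Ifi206*). Points within a library share depth and preparation, pairs that share words may share reads, and clusters were made from these cells, so the values are descriptions.

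In each library 1 cluster had the highest summed level of the 15 ISGs, a list that holds no member. *Ifi27l2a*, the most abundant ISG, was at 853 CPM in 12W spleen, 1900 CPM in 28W spleen and 2403 CPM in kidney, so the sum leans on it. In 28W spleen this was cluster 4, with 5523 CPM of ISGs, where the family stood at 1244 CPM (1207 to 1281). Of the members 6 of 10 were at least 1.5-fold higher there than in the rest of the library, against 1.49% of all genes, and 0 were 2-fold higher, against 0.405%. The median log2 ratio (10 CPM added) was 0.72 over the members, -0.05 over all genes and 1.53 over the ISGs. *Ifi203* was at 292 CPM in that cluster (log2 ratio 0.92), *Ifi208* at 174 (0.87), *Ifi206* at 68.8 (0.81) and *Mndal* at 208 (0.79), whereas *Aim2* was at 48.6 (0.22).

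In kidney the corresponding cluster was 6, with 7788 CPM of ISGs and a family level of 1493 CPM (1439 to 1549), the highest of that library. There 8 of 10 members were at least 1.5-fold higher, against 1.9% of all genes, and *Ifi214* and *Ifi206* were at least 2-fold higher, against 0.508%. The medians were 0.86 over the members, -0.02 over all genes and 1.09 over the ISGs. *Ifi214* reached 177 CPM (log2 ratio 1.24), *Ifi206* 79.2 (1.07), *Ifi213* 108 (0.99), *Ifi209* 258 (0.97) and *Aim2* 81.2 (0.67). Kidney cluster 10 came second in ISGs (6912 CPM) with 1309 CPM of the family (1230 to 1393) and 6 of 10 members at least 1.5-fold higher, against 13.8% of all genes.

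In 12W spleen the cluster of highest ISG level did not stand out for the family. This cluster, 2, had a summed ISG level of 2311 CPM, but a family level of 675 CPM (649 to 701) and a member median of -0.00, with 0 of 10 at least 1.5-fold higher, against 3.06% of all genes. Cluster 4, second with 1934 CPM, had 899 CPM of the family and a median of 0.39 against -0.16 for all genes. Its 4 members at least 1.5-fold higher stand against 0.7% of all genes, and *Ifi214* alone was at least 2-fold higher, against 0.0574%. Whether libraries differ in this respect was not tested, since each group had 1 library.

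**Figure D4:**
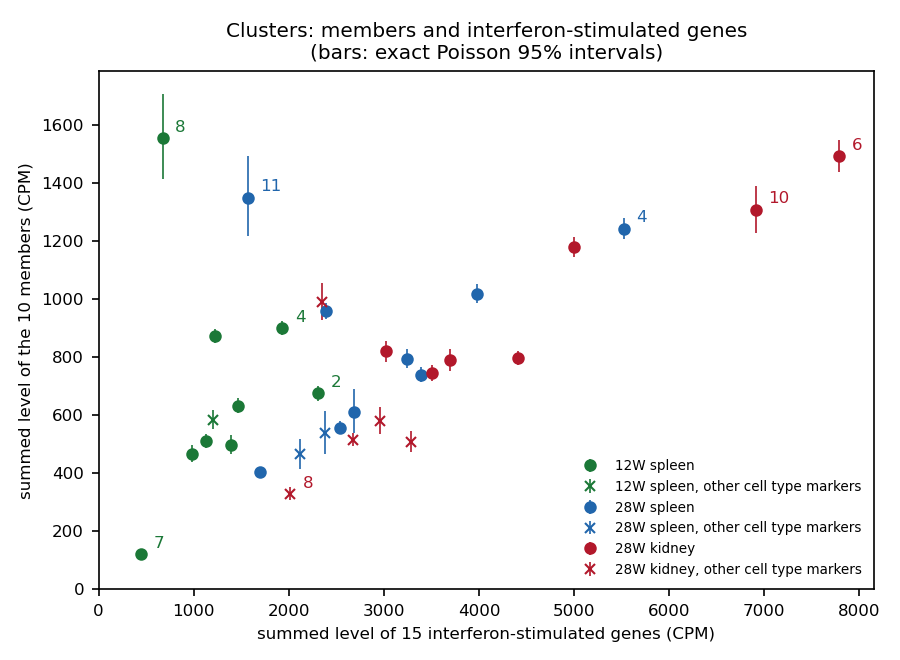
Summed level of the 10 members against the summed level of 15 ISGs, both in CPM, 1 point for each of 33 clusters with exact Poisson 95% intervals; crosses are clusters that carry markers of another cell type and numbers name clusters given in the text. Kidney cluster 6 and 28W spleen cluster 4 lie high on both axes and 12W spleen cluster 7 is low on both. The clusters 8 of 12W spleen and 11 of 28W spleen lie high on the family axis but not in the ISG sum, which leans on *Ifi27l2a*.

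Over the 33 clusters, centred in each library, r between the summed members and the summed ISGs was 0.56, and 0.48 over the 25 outside the 8 marker clusters. By library it was 0.46 in 12W spleen (10 clusters), 0.41 in 28W spleen (11) and 0.81 in kidney (12). Without the marker clusters it was 0.46 (9 clusters), 0.34 (9) and 0.92 (7) in the same order. Each r to the ISG sum leans on *Ifi27l2a*, its most abundant gene. *Ifi206* had the highest r to the ISG sum at 0.73, followed by *Ifi209* at 0.65, and *Aim2* was at 0.11. The summed members had an r of -0.47 with UMIs per cell (-0.64 over the 25), and by library this was -0.70 in spleen at 12W, -0.12 at 28W and -0.48 in kidney. Without the marker clusters it was -0.74, -0.46 and -0.60 in the same order.

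Some of the highest and lowest family levels were in shallow and deep clusters, but not all shallow clusters were high. Cluster 8 of 12W spleen stood at 1555 CPM (1414 to 1707) with 928 UMIs per cell and 9.0% mitochondrial UMIs, and its ISGs summed to 674 CPM. The median log2 ratio of the ISGs to the rest was 0.16 there, beside 0.50 over all genes. *Usp18*, *Oasl1*, *Oasl2*, *Mx1* and *Ifi44* had their highest 12W spleen level in that cluster. There 5 of 10 members were at least 2-fold higher, against 32.9% of all genes, so many genes were high in that cluster. Cluster 11 of 28W spleen stood at 1351 CPM (1217 to 1495) with 1288 UMIs per cell and 6.6% mitochondrial UMIs, while its ISG sum of 1567 CPM was the lowest of the library. Cluster 8 of 28W spleen, a marker cluster with 1020 UMIs per cell, stood at 537 CPM. *Aim2* had its highest level in each spleen library in the first 2 of these, at 105.3 CPM in 12W spleen cluster 8 and 115.6 CPM in 28W spleen cluster 11. At the other end, 28W spleen cluster 6, with 12208 UMIs per cell and proliferation genes at 1576 CPM, stood at 404 CPM (389 to 420), and 4 of 10 members were at least 2-fold lower there, against 2.37% of all genes.

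Cluster 7 of 12W spleen had the lowest levels of 8 members in that library. *Ifi203* was at 22.7 CPM (log2 ratio to the rest -2.11), *Ifi209* at 15.2 (-2.59), *Ifi208* at 13 (-2.25), *Ifi214* at 16.6 (-2.17) and *Mndal* at 26.7 (-1.71). *Ifi213* was at 3.41 CPM there and at 136.9 CPM in cluster 8, a ratio of 40.2. *Aim2* was the least reduced of these, at 20.7 CPM (-0.70). In that cluster 7 of 10 members were at least 2-fold lower, against 9.88% of all genes, and the medians were -1.91 over the members, -0.12 over all genes and -1.09 over the ISGs. In kidney the lowest family level was in cluster 8, at 329 CPM (308 to 351), where B cell markers summed to 1713 CPM and 6 of 10 members were at least 2-fold lower, against 5.88% of all genes.

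Among the 7 kidney clusters without other markers the abundant members spanned narrow ranges. The highest cluster exceeded the lowest by 1.93-fold for *Mndal*, 2.03-fold for *Ifi203* and 3.09-fold for *Ifi206*. With all 12 clusters, the spans widened to 4.18-fold, 3.4-fold and 11.2-fold.

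*Ifi214* and *Ifi203* differed in their order over the libraries, which can be read as a ratio within a library that no scaling changes. For each UMI of *Ifi203* there were 0.836 UMIs of *Ifi214* in spleen at 12W (0.798 to 0.875), 0.573 at 28W (0.548 to 0.599) and 0.435 in kidney (0.414 to 0.457). The 3 intervals were separate, and their order was the reverse of that of *Ifi203*. Since *Ifi203* is the denominator, this reversal is no separate observation. Within 12W spleen the ratio ran from 0.374 in cluster 2 (0.321 to 0.435) to 1.38 in cluster 4 (1.26 to 1.52). In 28W spleen cluster 7 was at 0.928 and cluster 1 at 0.378. In kidney cluster 6 was at 0.586, and cluster 12 was lowest at 0.120 (0.0635 to 0.209). Both genes hold the same promoter word, *Ifi203* in its second entry only, and the pair was chosen after its values were seen.

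**Figure D5:**
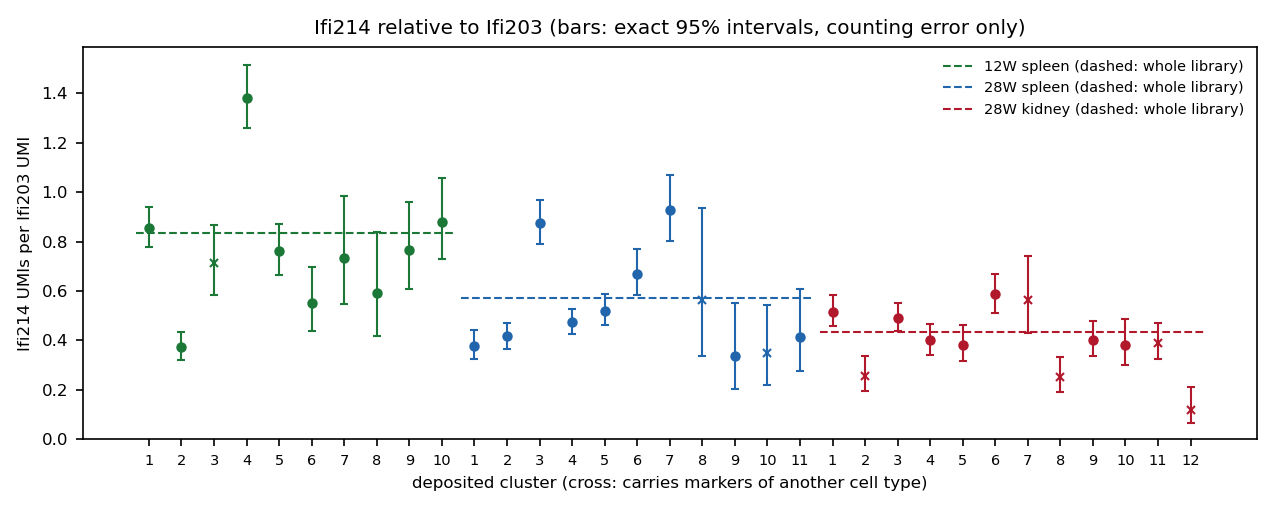
UMIs of *Ifi214* per UMI of *Ifi203* in each cluster, with exact 95% intervals for counting error and a dashed line at the value of the whole library; crosses mark clusters that carry markers of another cell type. The library value descends from 0.836 in 12W spleen through 0.573 in 28W spleen to 0.435 in kidney, and 12W spleen cluster 4 stands highest at 1.38.

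Among 6730 genes with at least 10 CPM in each library, the 5 most like the summed members over the 33 clusters included *Gbp9* (r 0.94), *Ddx58* (0.94), *Gbp8* (0.94) and *Sp100* (0.93). *Gbp8* and *Gbp9* encode guanylate-binding proteins, *Ddx58* the RNA sensor RIG-I and *Sp100* a nuclear body protein. By member, *Ddx58* was nearest to *Ifi203* (0.98) and *Mndal* (0.95), *Gbp9* to *Ifi208* (0.96), *Gbp8* to *Ifi213* (0.94) and *Gbp10* to *Ifi214* (0.90). *Sp100* was nearest to *Ifi209* (0.90), *Xaf1* to *Ifi206* (0.89) and *Mier1* to *Aim2* (0.94), followed for *Aim2* by *Tap1* and *Dock8* (both 0.92). Clusters share libraries and depth, so each r is a description.

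Of 11 genes for interferon receptors and signalling, 0 were at least 2-fold higher and 1 was lower at 28W in spleen, and the median log2 ratio was 0.18. *Irf1* was at 0.62 and *Stat2* at 0.60 with age, both encoding transcription factors of the interferon response. *Ifngr2*, a chain of the IFN-γ receptor and the gene that was lower (-1.23), was at 8.35 CPM in spleen at 12W, 3.0 CPM at 28W and 7.22 CPM in kidney, where 42.1% of its UMIs were in cluster 12. It was the only gene of the list at least 2-fold higher in kidney (log2 ratio 1.04), and it was at -0.87 without the 8 marker clusters.

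Among 14 genes of DNA sensing and the inflammasome, *Casp1* had the largest ratio with age. This protease of the *Aim2* inflammasome was at 10.7 CPM in spleen at 12W, 46.6 CPM at 28W and 82.7 CPM in kidney, a log2 ratio of 2.02 with age (ratio 4.35, 3.88 to 4.89) and 0.82 for organ. No other gene of the list was at least 2-fold higher with age, and *Casp1* was at 1.85 without 12W spleen cluster 7. *Pycard*, the adaptor, was at 99.7, 107 and 117 CPM and differed by 0.10 and 0.13. *Zbp1*, a sensor of Z-form nucleic acids, was at 57.3, 112 and 174 CPM (0.95 and 0.64). *Il1b* alone was at least 2-fold higher in kidney (1.19), with 94.8% of its kidney UMIs in cluster 12, and without the 8 marker clusters *Casp1* alone was (1.06). With kidney cluster 11 kept, 0 of the 14 genes were. The list's medians were 0.12 with age and 0.20 for organ.

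Of 10 genes listed as neighbours of the family in the lupus interval, 0 passed 2-fold with age. In kidney *Fcer1g* (24.1 to 102 CPM, log2 ratio 2.03), *Fcgr2b* (1.91) and *Fcgr3* (1.83), which encode Fc receptor chains, were at least 2-fold higher than in 28W spleen, and *Slamf6*, a receptor gene of the SLAM family, was lower (204 to 98.3 CPM, -1.05). Without the 8 marker clusters none of the 10 genes passed 2-fold in either direction, with *Fcer1g* at -0.01, *Fcgr2b* at -0.45 and *Slamf6* at -0.92.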

How the data were processed

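Sorted PD-1+CD44+CD8+ T cells of 3 groups were sequenced with 10x Genomics 5′ v2 chemistry. The submitters' processing notes name Cell Ranger 2.1.1, R 3.6.1 and GRCm38, and cell filters, doublet removal and the annotation release are not given in the sources used here. The authors deposited, library by library, a cluster for each cell barcode and a table of genes by clusters with mean UMI counts per cell, scaled so that every column sums to the library's median UMIs per cell. Columns with the authors' log2 fold changes and adjusted p-values of a cluster against other cells were not used. Clonotypes of the T cell receptor were not used here.

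Each column held whole multiples of the value of 1 UMI (all values within 0.001 of a whole number), so UMIs were recovered, summed over clusters and expressed per 1000000 (CPM). Tables were normalized separately by the authors, and levels across libraries rest on this rescaling. Log2 ratios used a pseudocount of 1 CPM between libraries and 10 CPM between a cluster and the rest, which understates low genes. Intervals are 95% exact Poisson limits for levels and exact conditional binomial limits for ratios, and cover counting error only. A log2 ratio of at least 1 in size was called, with 1.5-fold as the alternative. Shares of all genes are over genes with at least 5 CPM in a compared library or, for clusters, in the cluster's library. *Ifi202b* and *Ifi204* were below that level in every library but are counted among the 10 members. No test was possible with 1 library per group. Samples were grouped by title. The ratio step was tested on simulated data.

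Of 18992 identifiers, 18960 were found in GENCODE M21 (GRCm38). Named genes were the 10 members, other family genes in the files, up to 3 highest and 3 lowest log2 ratios of each list among genes with at least 5 CPM, the 5 genes nearest the summed members, and the 3 nearest each member with at least 100 UMIs in each library. A gene that met this rule is not reported here. *Ifi209*, *Ifi214* and clusters singled out for their values, and the levels of *Pycard*, were chosen after they were seen. The members and lists were chosen with earlier results of these data known. Alternatives were scalings, pseudocounts, weighting by cells and left-out clusters. Python 3.11.15, numpy 2.4.6, pandas 2.3.3, scipy 1.17.1 and matplotlib 3.10.9 were used.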

Additional observations from a re-analysis of the deposited data

How the results depend on the processing

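The members' median with age (0.30) was 0.40 after scaling by the median gene, 0.43 without the cluster of most UMIs per cell and 0.12 without 12W spleen cluster 7, left out after seeing the data. The number at least 2-fold higher with age (0) was 1 at 1.5-fold. For organ the median (0.14) was 0.058 after scaling by the median gene, -0.022 with totals that leave out T cell receptor, immunoglobulin, mitochondrial and ribosomal protein genes, 0.040 without the cluster of most UMIs per cell and 0.29 without clusters that carry other or erythroid markers. It was 0.15 where the cluster with erythroid markers alone was kept. The number at least 2-fold higher in kidney (1) was 2 with a pseudocount of 0.1 CPM, 0 with 10 CPM, 0 without clusters that carry B cell, myeloid or tubule markers, 0 when erythroid ones were left out too, and 2 at 1.5-fold. In the cluster with most ISGs, the members' median in 28W spleen (0.72) was 0.91 with 1 CPM added, 0.50 with 50 CPM and 0.42 in the second cluster, in kidney (0.86) it was 0.68 with 50 CPM, 0.63 in the second cluster and 0.63 over a rest without marker-carrying clusters, and in 12W spleen (-0.00) it was 0.39 in the second cluster. By Spearman's rho 3 of the 5 genes nearest the family were shared. The cause of these shifts was not tested. No paired analysis was possible because the tables hold 1 library for each group, and for the same reason no sample could be left out. Depth limits *Ifi202b* and *Ifi204* most, since 3 UMIs correspond to 0.0864 to 0.10 CPM and *Ifi202b* had 13 UMIs in 12W spleen.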
